A study of Oryza sativa with 24 samples.

Results

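The light-reaction genes of photosynthesis described here are 36 nuclear rice genes, among 55801 genes listed in the expression table. They were chosen by identifier as genes of light-harvesting proteins, photosystem I and II subunits, plastocyanin, ferredoxin, ferredoxin-NADP reductase, the Rieske protein and chloroplast ATP synthase. That rule uses no measured level, but the list was drawn up with earlier results of these data known. By role they comprise 8 antenna genes of photosystem II, 6 subunit genes of photosystem II, 5 genes of electron carriers, 6 antenna genes of photosystem I, 9 subunit genes of photosystem I and 2 genes of ATP synthase. Of these, 33 had a mean of at least 5 FPKM (fragments counted per gene, scaled to the gene's length and to the mapped fragments of the library) and 34 passed the filter for testing, which asked for 2 or more libraries with 1 FPKM or more.

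Light-harvesting proteins bind chlorophyll and pass the absorbed energy to the reaction centre of a photosystem. Photosystem II takes electrons from water, and these run through the cytochrome b6f complex and plastocyanin to photosystem I, then through ferredoxin to ferredoxin-NADP reductase, which makes NADPH. The proton gradient built up on the way drives ATP synthase, and in leaf cells the nuclear genes of this chain are among the most strongly transcribed of all.

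RNA-seq was made from flag leaves taken at heading from field-grown rice in 6 groups with 2 libraries each. CY84 is the hybrid of the japonica male-sterile line Chunjiang 16 A as mother and C84, an indica-japonica intermediate line, as father. Fix T0 is the founding edited plant in that hybrid background, and Fix T1, Fix T2, Fix T3 and Fix T4 are the diploid seed generations that followed it. All 5 Fix groups carry the edits of the meiotic genes REC8, PAIR1 and OSD1 and of MTL, by which the line sets clonal seed. CY84 and Fix T0 had been preserved by their roots and the other 4 groups were raised from seed, so that generation and way of raising cannot be told apart. The sources do not say whether the 2 libraries of a group came from separate plants, and p-values therefore measure the spread between these libraries only. In bulk leaf tissue, fewer cells of a type and less RNA per cell cannot be told apart.

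Summed FPKM per library lay between 680768 and 767790, and a rough estimate of read depth relative to CY84 replicate 1 between 0.674 and 1. The leaf label could be set against marker genes: 3 Rubisco small subunit genes and Rubisco activase together stood at 12966 to 34504 FPKM, and 2 anther regulators summed to at most 1.28 FPKM. Of 2 silicon transporter genes taken as root markers, LSI1 (LOC_Os02g51110) stood at 18.6 to 72.8 FPKM and LSI2 (LOC_Os03g01700) was listed at 0 in every library. Of 2 seed storage genes, one was listed at 0 throughout and the pair summed to at most 0.453 FPKM. An exact 0 can be a failed estimate, so that nothing is read from such values here. Scaling matters for every difference given here. Fix T2 replicate 2 had the lowest level of 34.7% of all tested genes, and a rescaling to the libraries' median ratio of all genes used factors from 0.727 in that library to 1.29 in Fix T4 replicate 2. That rescaling moved the median of all genes by 0.32 for Fix T2, 0.20 for Fix T3 and -0.17 for Fix T4 against Fix T0 on the log2 scale, and by 0.13 for the Fix mean against CY84 and 0.13 for the seed-grown against the root-kept groups.

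The 36 genes held a large part of each library. Their share of summed FPKM had a median of 11.8% over the 12 libraries, with 9.02% in Fix T4 replicate 2 as the lowest and 17.4% in Fix T2 replicate 1 as the highest. In group order, the share was 11.8% ± 0.722 in CY84, 13.0% ± 1.26 in Fix T0, 10.6% ± 0.766 in Fix T1, 17.4% ± 0.0538 in Fix T2, 13.5% ± 3.09 in Fix T3 and 10.2% ± 1.70 in Fix T4 (SD, n = 2 each). Both Fix T2 libraries lay above the other 10, and Fix T3 was split, with 15.7% in replicate 1 and 11.3% in replicate 2. Ordered by mean, Fix T3 and Fix T0, Fix T0 and CY84, and Fix T1 and Fix T4 overlapped, and CY84 and Fix T1 differed by less than the sum of their SDs. Photosystem II antenna genes held the most, 4.09% to 8.74% of a library, followed by photosystem I antenna genes at 1.55% to 2.98%, photosystem I subunits at 1.37% to 2.98%, photosystem II subunits at 0.947% to 1.85%, electron carriers at 0.771% to 1.24% and the ATP synthase pair at 0.122% to 0.197%.

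**Figure D1:**
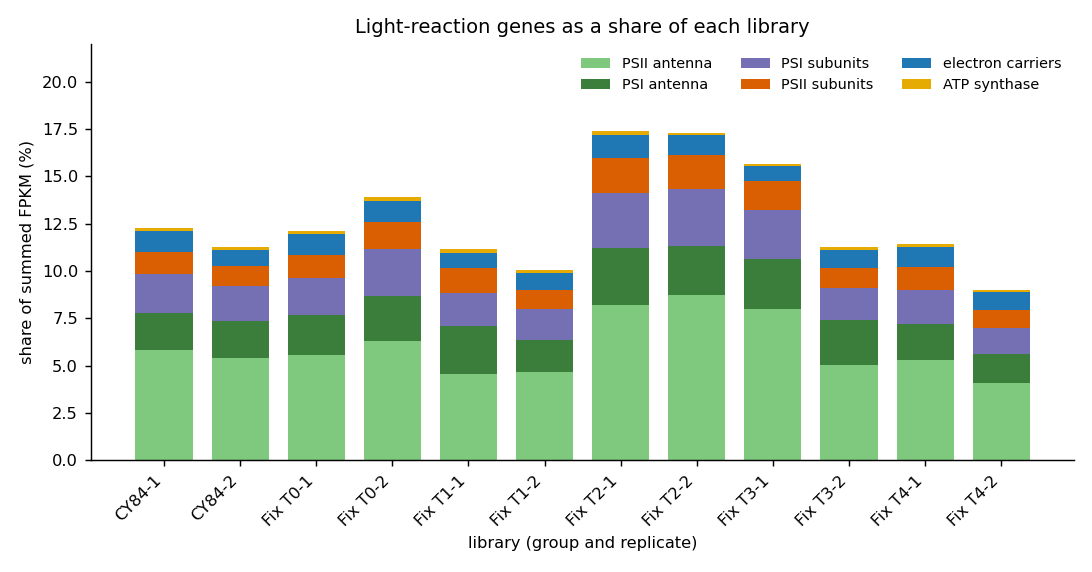
Share of each library's summed FPKM (%, vertical axis) held by the light-reaction genes, stacked by role, for the 12 libraries named by group and replicate. The Fix T2 bars reach 17.4% and 17.3%, above all other libraries, and Fix T4 replicate 2 has the shortest bar at 9.02%.

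The genes that receive light for photosystem II were the most abundant. CAB1R (LOC_Os09g17740) and CAB2R (LOC_Os01g41710) encode the main chlorophyll-binding protein of the mobile antenna, and by mean FPKM they ranked 4 and 2 among all listed genes. CAB2R, replicate 1 then replicate 2, stood at 11798 and 10713 FPKM in CY84, 13573 and 13738 in Fix T0, 9448 and 10881 in Fix T1, 18373 and 27548 in Fix T2, 24944 and 11369 in Fix T3, and 13579 and 9870 in Fix T4. The highest 3 libraries were the Fix T2 pair and Fix T3 replicate 1, while the Fix T3 pair spanned most of the range. Its log2 difference between Fix T2 and Fix T0 was 0.72 (SE 0.41), with a limma adjusted p of 0.346.

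CAB1R and CAB2R did not keep 1 ratio. CAB2R was at 0.871 and 0.795 of the CAB1R level in the CY84 libraries, and above CAB1R in all 10 Fix libraries, at 1.18 and 1.15 in Fix T0 and between 1.01 and 1.86 in the seed-grown libraries. The CY84 and Fix ranges of this ratio did not overlap. It was chosen after the values had been seen and was not tested. The coding sequences of such antenna genes are much alike, so that the division of reads between them is uncertain, as it is for LOC_Os01g52240, another gene of the same protein. That gene had a listed 0 in 9 libraries, and 9.15 FPKM in Fix T1 replicate 2, 8.03 in Fix T2 replicate 1 and 4.99 in Fix T3 replicate 2. It passed the filter through those 3 libraries alone, and no fold is given for it.

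**Figure D2:**
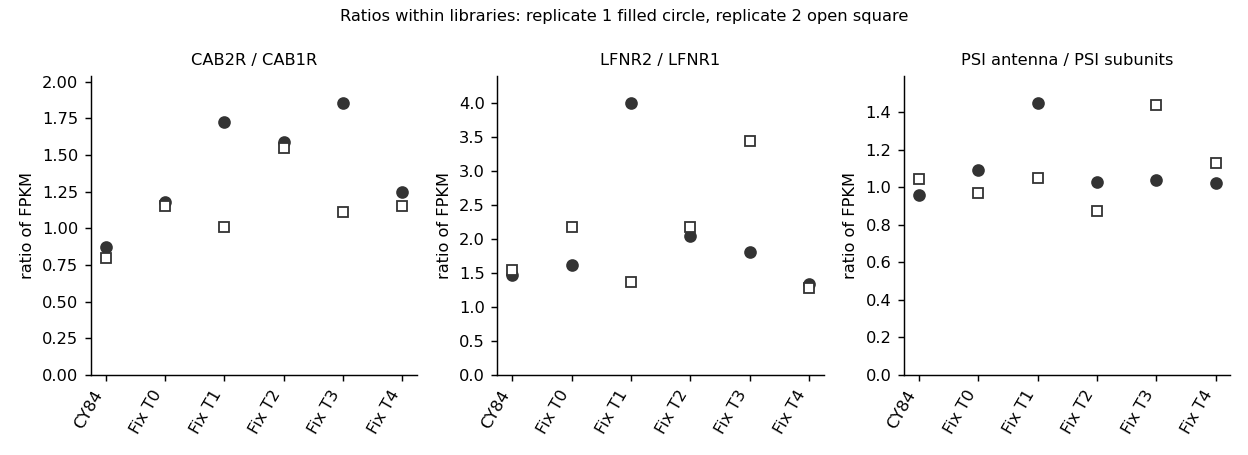
Ratio of FPKM within each library (vertical axes, linear from 0) for CAB2R over CAB1R, LFNR2 over LFNR1 and the summed photosystem I antenna genes over the summed photosystem I subunits, by group, with replicate 1 as a filled circle and replicate 2 as an open square. CAB2R over CAB1R is below 1 in both CY84 libraries and above 1 in the 10 Fix libraries, and LFNR2 over LFNR1 is highest at 4.00 and 3.43 in single libraries of Fix T1 and Fix T3.

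The other photosystem II antenna genes had means between 1185 and 4883 FPKM. RCABP89 (LOC_Os03g39610) and Lhcb3 (LOC_Os07g37550) encode further proteins of the mobile antenna, and Lhcb4 (LOC_Os07g37240), Lhcb5 (LOC_Os11g13890) and Lhcb6 (LOC_Os04g38410) the minor antenna proteins that link it to the core. Lhcb6 had the widest range of them. It stood at 1198 and 1206 FPKM in CY84, 1065 and 1231 in Fix T0, 987 and 593 in Fix T1, 2231 and 1754 in Fix T2, 1229 and 676 in Fix T3, and 1320 and 734 in Fix T4. The 2 Fix T2 libraries were above the other 10, and Fix T2 differed from Fix T0 by 0.79 on the log2 scale (SE 0.37, adjusted p from limma 0.271).

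Among photosystem II subunits, PsbO and PsbP of the water-oxidising complex on the lumen side had the highest means. PsbO (LOC_Os01g31690), which stabilises the manganese cluster, stood at 3645 and 3372 FPKM in CY84, 3986 and 4769 in Fix T0, 4298 and 3111 in Fix T1, 6141 and 6429 in Fix T2, 5660 and 3408 in Fix T3, and 4151 and 2785 in Fix T4. PsbP (LOC_Os07g04840) and PsbQ (LOC_Os07g36080), its partners in that complex, ranged from 1614 to 4441 and from 478 to 1634 FPKM. For PsbO, PsbP and PsbQ alike the 2 Fix T2 libraries were the highest, and PsbQ lay 0.97 (SE 0.39) above Fix T0 on the log2 scale, with a limma adjusted p of 0.226.

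PsbR (LOC_Os07g05360), a small protein beside the same complex, had another order. It stood at 411 and 198 FPKM in CY84, 611 and 330 in Fix T0, 589 and 670 in Fix T1, 178 and 380 in Fix T2, 520 and 313 in Fix T3, and 395 and 641 in Fix T4. Fix T2 replicate 1, the library with the highest total share, held its lowest value, and Fix T1 replicate 2 its highest. Between Fix T2 and Fix T0 it differed by -0.79 on the log2 scale (SE 0.46, adjusted p from limma 0.355), and the groups overlapped. PsbS1 (LOC_Os01g64960), the sensor for heat dissipation of excess light, ranged only from 706 to 1297 FPKM, and PsbY (LOC_Os08g02530) was listed at 0 in every library.

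The electron carriers between and after the photosystems did not share an order of libraries. The Rieske iron-sulphur protein of the cytochrome b6f complex, petC (LOC_Os07g37030), had the highest mean of the class. It stood at 2622 and 2375 FPKM in CY84, 2502 and 2977 in Fix T0, 2043 and 2428 in Fix T1, 3000 and 1579 in Fix T2, 1669 and 3061 in Fix T3, and 2211 and 2155 in Fix T4. The lowest and the highest library were in Fix T2 and Fix T3, groups whose other library lay near the opposite end. Plastocyanin (LOC_Os06g01210), the copper protein that brings electrons to photosystem I, ranged from 1123 to 3655 FPKM, with 1744 and 3655 in the Fix T2 pair.

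Fd1 (LOC_Os08g01380), a ferredoxin that accepts electrons from photosystem I, had the widest range of all 33 genes. It stood at 908 and 66.5 FPKM in CY84, 1214 and 1610 in Fix T0, 785 and 1113 in Fix T1, 2046 and 1604 in Fix T2, 1106 and 1078 in Fix T3, and 1207 and 731 in Fix T4. One library, CY84 replicate 2, was far below the other 11, which ran from 731 to 2046. Its log2 difference between Fix T0 and CY84 was 2.50 (SE 0.82), with a limma adjusted p of 0.877. Against the mean of the Fix groups it was 2.27 (SE 0.64), with a limma adjusted p of 0.161. Without CY84 replicate 1, so that the library at 66.5 stood alone for CY84, the adjusted p of the second difference was 0.000438, and without CY84 replicate 2 the log2 difference was 0.39.

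LFNR1 (LOC_Os06g01850) and LFNR2 (LOC_Os02g01340) encode the leaf forms of ferredoxin-NADP reductase. LFNR2 was above LFNR1 in all 12 libraries, by a factor of 1.27 in Fix T4 replicate 2 to 4.00 in Fix T1 replicate 1. Within Fix T1 the factor was 4.00 in one library and 1.37 in the other, so that the spread inside that group was nearly as wide as the range over all libraries. LFNR1 ranged from 314 to 715 FPKM and was highest in CY84 replicate 1.

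In the photosystem I antenna, Lhca4 (LOC_Os08g33820) had the highest mean, 5886 FPKM. It stood at 4950 and 4548 FPKM in CY84, 5266 and 5787 in Fix T0, 9055 and 3855 in Fix T1, 8336 and 7121 in Fix T2, 6996 and 6234 in Fix T3, and 4362 and 4124 in Fix T4. The Fix T1 pair held both the highest and the lowest value. Fix T2 and Fix T3 lay above Fix T0 without overlap and Fix T4 below it.

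Lhca3 (LOC_Os02g10390), another belt protein of that antenna, had the widest range of the class. It stood at 2697 and 3739 FPKM in CY84, 4192 and 4283 in Fix T0, 4630 and 3400 in Fix T1, 3911 and 6333 in Fix T2, 6203 and 5774 in Fix T3, and 3498 and 1947 in Fix T4. Both Fix T3 libraries were above Fix T0 and both Fix T4 libraries below it. Fix T4 differed from Fix T0 by -0.70 on the log2 scale (SE 0.36), and limma's adjusted p was 0.743. Lhca1 (LOC_Os06g21590) and Lhca2 (LOC_Os07g38960) had means of 4188 and 1343 FPKM. The 2 minor antenna genes, LOC_Os09g26810 and LOC_Os02g52650, had means of 52.8 and 31.9 FPKM, the lowest of the 33.

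Of the photosystem I subunits, PsaL (LOC_Os12g23200), which lies where antenna of photosystem II can dock, had the highest mean. It stood at 2847 and 2453 FPKM in CY84, 2558 and 3967 in Fix T0, 2362 and 2930 in Fix T1, 2763 and 3804 in Fix T2, 5054 and 1995 in Fix T3, and 2146 and 1720 in Fix T4. The Fix T4 pair lay below Fix T0 by -0.73 on the log2 scale (SE 0.41, adjusted p from limma 0.801), and the Fix T3 pair spanned most of the range. PsaD (LOC_Os08g44680), PsaE (LOC_Os07g25430) and PsaF (LOC_Os03g56670), which form the docking sites for ferredoxin and plastocyanin, had means of 2857, 751 and 1132 FPKM. PsaF lay 0.78 (SE 0.28) above Fix T0 in Fix T2 on the log2 scale, which gave the smallest limma adjusted p of that comparison among the light-reaction genes, 0.201.

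PsaN (LOC_Os12g08770), a lumen protein at the plastocyanin site, stood at 664 and 637 FPKM in CY84, 826 and 706 in Fix T0, 554 and 409 in Fix T1, 721 and 1889 in Fix T2, 568 and 410 in Fix T3, and 774 and 548 in Fix T4. A single library, Fix T2 replicate 2, was above the remaining 11. Without Fix T2 replicate 1 its difference from Fix T0 passed (log2 1.31, limma adjusted p 0.0469), and with both libraries of that group it did not. PsaH (LOC_Os05g48630), PsaK (LOC_Os07g05480) and PsaO (LOC_Os04g33830), at the edges where antenna proteins attach, had means of 2165, 1511 and 2692 FPKM. PsaG (LOC_Os09g30340), a subunit of the antenna side, was listed at 0 in 11 libraries and at 16.1 FPKM in CY84 replicate 2.

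AtpC (LOC_Os07g32880), the rotating gamma subunit of ATP synthase, had the narrowest range of the 33 genes, with a ratio of 1.58 between the highest and the lowest library. It stood at 910 and 880 FPKM in CY84, 800 and 1029 in Fix T0, 898 and 862 in Fix T1, 999 and 760 in Fix T2, 755 and 924 in Fix T3, and 746 and 651 in Fix T4. The Fix T4 pair was the lowest, and it differed from Fix T0 by -0.38 on the log2 scale (SE 0.25, adjusted p from limma 0.878). AtpD (LOC_Os02g51470), the delta subunit, ranged from 182 to 360 FPKM, and all groups overlapped Fix T0.

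**Figure D3:**
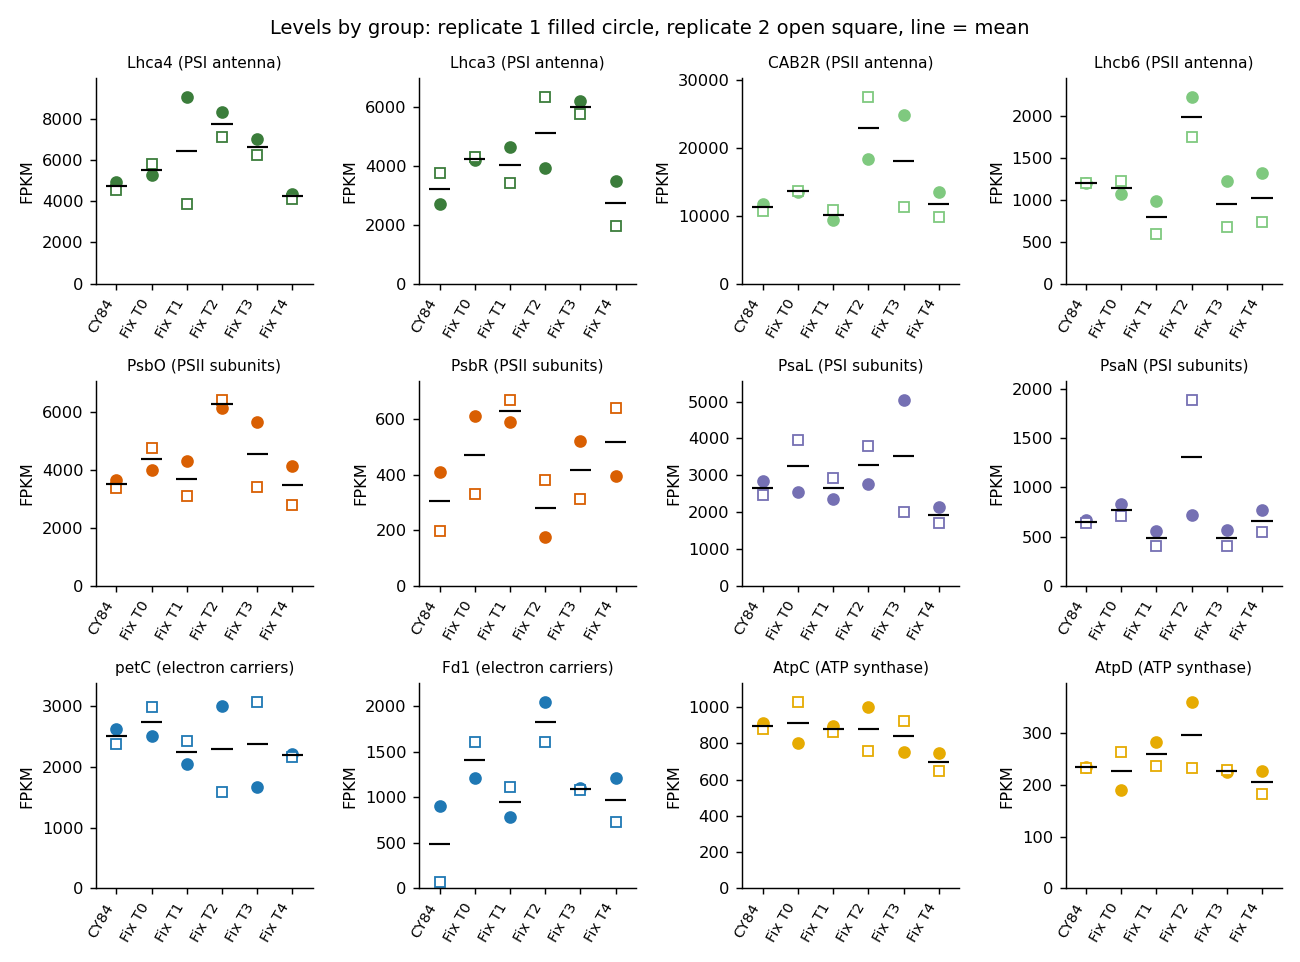
FPKM (vertical axes, linear from 0) by group for the gene with the highest mean and the gene with the widest range in each role class, with replicate 1 as a filled circle, replicate 2 as an open square and the mean of the pair as a line. CAB2R, Lhcb6 and PsbO have both Fix T2 libraries above Fix T0, Fd1 has a single low value of 66.5 in CY84, and PsaN a single high value of 1889 in Fix T2.

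Across libraries, many of these genes varied together, though the electron carriers mostly did not. Over the 33 genes with a mean of at least 5 FPKM, 25 had their highest value in a Fix T2 library (13 in replicate 1 and 12 in replicate 2). Of all tested genes, 4.74% and 6.98% were highest in these 2 libraries. A library of Fix T1 or Fix T4 held the lowest value of 27, with 13 of them in Fix T4 replicate 2. The shares of all tested genes lowest there were 13.1% and 2.15% in the Fix T1 pair and 2.12% and 2.61% in the Fix T4 pair. As a description over 12 libraries that share their scaling, each gene's log2 level was set against the median of the others. For genes outside the list this was not worked out, so the values have no background beside them. Pearson's r had a median of 0.683 and was at least 0.8 for 14 genes, with Lhcb4 at 0.968, PsbQ at 0.956 and PsbO at 0.947 as the highest. It was below 0 for 4 genes, PsbR at -0.53, LFNR1 at -0.27, petC at -0.21 and the minor antenna gene LOC_Os02g52650 at -0.06. All electron carriers and AtpC were at 0.32 or less.

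**Figure D4:**
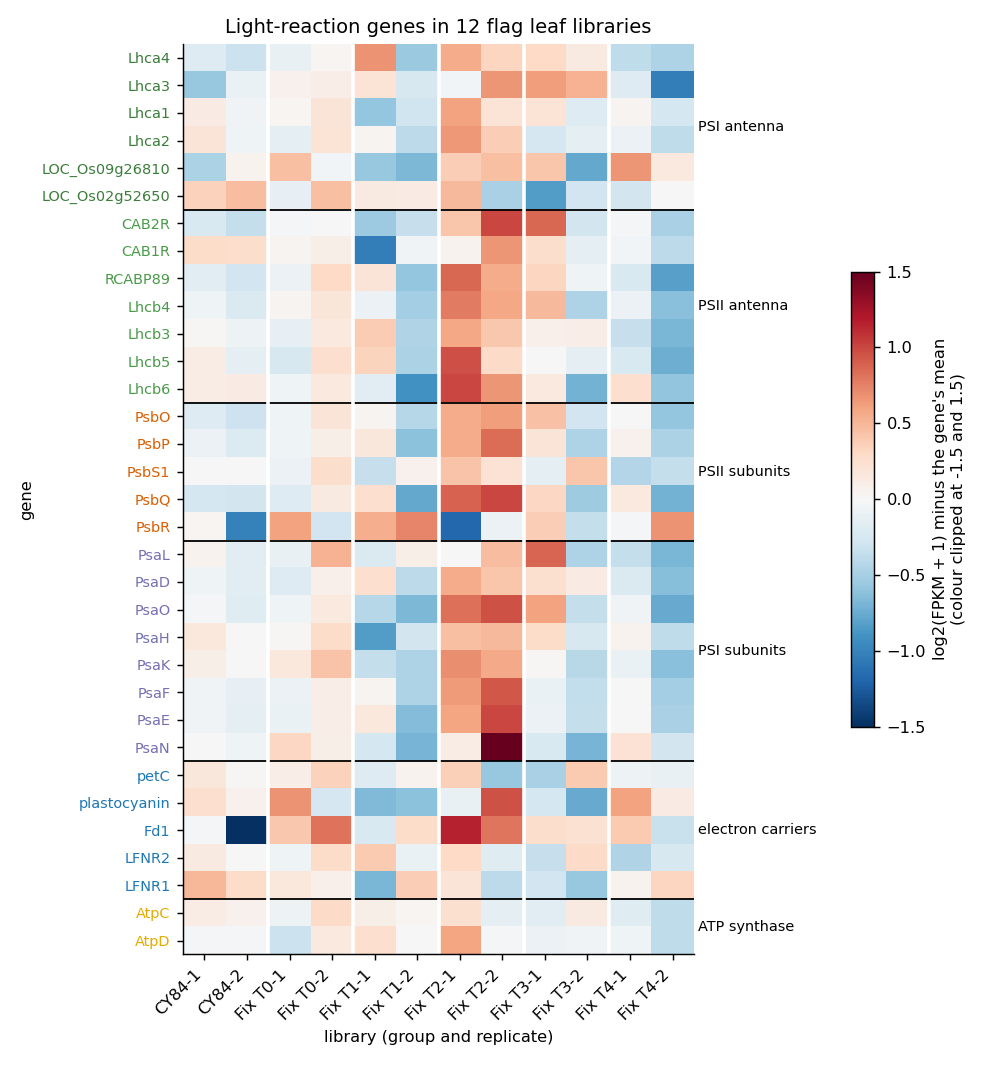
log2(FPKM + 1) of the 33 light-reaction genes with a mean of at least 5 FPKM, each minus its own mean over 12 libraries (colour, with the scale clipped at both ends), with genes in rows by role and libraries in columns. Most antenna and photosystem subunit genes are above their mean in both Fix T2 libraries and below it in Fix T4 replicate 2, while PsbR, petC and LFNR1 follow another order.

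Whether any light-reaction gene differed among the 6 groups was asked with a moderated F test in limma on log2(FPKM + 1). Of the 34 tested, 0 passed at an adjusted p under 0.05, against 1.91% of all 18871 tested genes. At an unadjusted p under 0.05 there were 5, against 23.2% of all genes, and the smallest adjusted p was 0.148 for PsaK. The 5 were PsaK, PsaO, PsaF, PsaE and Lhcb6. The p-values do not show that the levels were alike: for PsaK, the standard error of a difference of 2 groups was 0.27 on the log2 scale.

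For Fix T0 against CY84, the first plants with the edits against the hybrid they were made in, the light-reaction genes stood close together in both groups. Their median log2 difference was 0.10, against -0.05 for all tested genes, with 27 positive and 6 negative, and LOC_Os01g52240 was at 0 in both groups. limma called 0 of 34, against 0.0901% of all genes, and 1 at an unadjusted p under 0.05, Fd1, against 3.87%. In 11 both Fix T0 libraries were above both CY84 libraries, where 18% of all genes were, and in 2, CAB1R and LFNR1, both were below, where 26.6% of all genes were. The 11 were Lhca3, Lhca4, CAB2R, RCABP89, Lhcb4, PsbO, PsbP, PsbQ, PsaK, PsaN and Fd1. With a single library on one side more genes separate: without Fix T0 replicate 1 the count of 11 became 27 (27.4% of all genes), and without CY84 replicate 1 it became 19 (27.1%). Without CY84 replicate 2 it was 12 (31.8%), and without Fix T0 replicate 2 it was 14 (37.2%).

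The 4 seed generations were each set against Fix T0, and these comparisons share the 2 Fix T0 libraries. LOC_Os01g52240, at 0 in both of those, counts as positive in Fix T1, Fix T2 and Fix T3 through 1 library of each. In Fix T1 the median log2 difference of the light-reaction genes was -0.25, against -0.06 for all genes, with 5 positive and 29 negative. limma called 0 of 34, against 0.0795% of all genes, and 3 at an unadjusted p under 0.05, against 5.04%. Those 3 were PsaK (-0.71), PsaH (-0.70) and the minor antenna gene LOC_Os09g26810 (-0.83), all lower in Fix T1. In 13 genes both Fix T1 libraries were below both Fix T0 libraries, against 14.3% of all genes, and in 0 above, against 15.5%. The count of 13 became 21 (23.0% of all genes) without the first Fix T0 library and 26 (21.4%) without the first Fix T1 library. It was 13 (31.7%) without the second Fix T0 library and 16 (56.9%) without the second Fix T1 library. After rescaling it was 10 (16.7%).

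In Fix T2 the light-reaction genes lay highest. Their median log2 difference from Fix T0 was 0.43, against -0.28 for all genes, with 28 positive and 6 negative, and by role the medians were 0.61 for photosystem II antenna, 0.53 for photosystem II subunits, 0.58 for photosystem I subunits, 0.26 for photosystem I antenna and -0.05 for electron carriers. The 28 and the photosystem II antenna median include LOC_Os01g52240, which had a value above 0 in only 1 of these 4 libraries. In 18 genes both Fix T2 libraries were above both Fix T0 libraries, against 9.72% of all genes, and in 0 below, against 42.5%. limma called 0 of 34, against 0.0901% of all genes, and 4 at an unadjusted p under 0.05, against 19%: PsaF, PsaE, PsbQ and PsaO, all higher in Fix T2. After rescaling, the median was 0.84, with the median of all genes at 0.04, and the count of 18 became 28, with the share of all genes at 25.01%.

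Marker lists of leaf state varied between libraries as well. The 5 leaf senescence genes SGR, NYC1, NYC3, PAO and NAP act in chlorophyll breakdown or its control. They summed to 138 and 91.4 FPKM in Fix T2, against 214 and 192 in Fix T0. The means of 5 of 5 were below those in Fix T0, while only 28.2% of all tested genes had a positive difference from Fix T0 in Fix T2. The sums were 275 and 320 FPKM in CY84, 150 and 217 in Fix T1, 114 and 220 in Fix T3, and 177 and 277 in Fix T4, so that Fix T3 replicate 1 lay between the Fix T2 libraries. The 4 genes of Rubisco and its activase summed to 34504 and 22036 FPKM in Fix T2, overlapping the 18497 and 25907 in Fix T0. Of 3 clock genes, LHY stood at 26.1 and 11.7 FPKM in Fix T2, against 68.2 and 65.8 in Fix T0, and it was as low in Fix T3 at 19.6 and 30.5. It stood at 25.5 and 53.1 FPKM in Fix T1, 31.4 and 53.3 in Fix T4, and 57.3 and 60.3 in CY84. All 8 seed-grown libraries were below the 4 root-kept ones for LHY, which held for 0.901% of all tested genes. Both Fix T2 libraries were below both Fix T0 libraries in 42.5% of all tested genes, and both Fix T3 libraries in 40.2%. TOC1 stood at 35.2 and 18.0 FPKM in Fix T2, against 38.7 and 35.997 in Fix T0, and GI at 229 and 118, on both sides of its 177 and 193 in Fix T0. The part of leaf age or hour of sampling in the levels of the light-reaction genes was not tested.

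In Fix T3 the light-reaction genes were spread to both sides of Fix T0. Their median log2 difference was -0.11, against -0.19 for all genes, with 12 positive and 22 negative, and after rescaling it was 0.14, with 25 of 34 positive. limma called 0 of 34, against 0.291% of all genes, and 1 at an unadjusted p under 0.05, the minor antenna gene LOC_Os02g52650 (-0.73), against 16.4%. In 3 genes (Lhca3, Lhca4 and PsaD) both libraries were above Fix T0, against 16.3% of all genes, and in 8 both were below, against 40.2%. The 8 were Lhca2, LOC_Os02g52650, PsaF, PsaK, PsaN, plastocyanin, Fd1 and LFNR1. The count became 2 after rescaling (26.2% of all genes), 15 without Fix T0 replicate 1 (47.5%) and 22 without Fix T3 replicate 1 (51.5%). It was 10 without Fix T0 replicate 2 (53.6%) and 12 without Fix T3 replicate 2 (55.4%).

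In Fix T4 most light-reaction genes had lower values than in Fix T0. The median log2 difference from Fix T0 was -0.31, against 0.16 for all genes, with 4 positive and 29 negative. In 14 genes both Fix T4 libraries were below both Fix T0 libraries, against 9.41% of all genes, and in 0 above, against 35.9%. limma called 0 of 34, against 1.05% of all genes, and 1 at an unadjusted p under 0.05, PsaK (-0.66, SE 0.27, adjusted p 0.541), against 7.96%. The 14 held Lhca3, Lhca4, CAB1R, RCABP89, Lhcb3, Lhcb4, PsbS1, PsaD, PsaK, PsaL, Fd1, LFNR2, petC and AtpC. The count of 14 became 25 after rescaling (21.3% of all genes), 26 without Fix T0 replicate 1 (16.9%) and 28 without Fix T4 replicate 1 (18.3%). It was 16 without Fix T0 replicate 2 (21.1%) and 16 without Fix T4 replicate 2 (24.6%). The 4 genes of Rubisco and its activase summed to 17434 and 12966 FPKM in Fix T4, and the senescence list stood at 177 and 277 FPKM there.

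**Figure D5:**
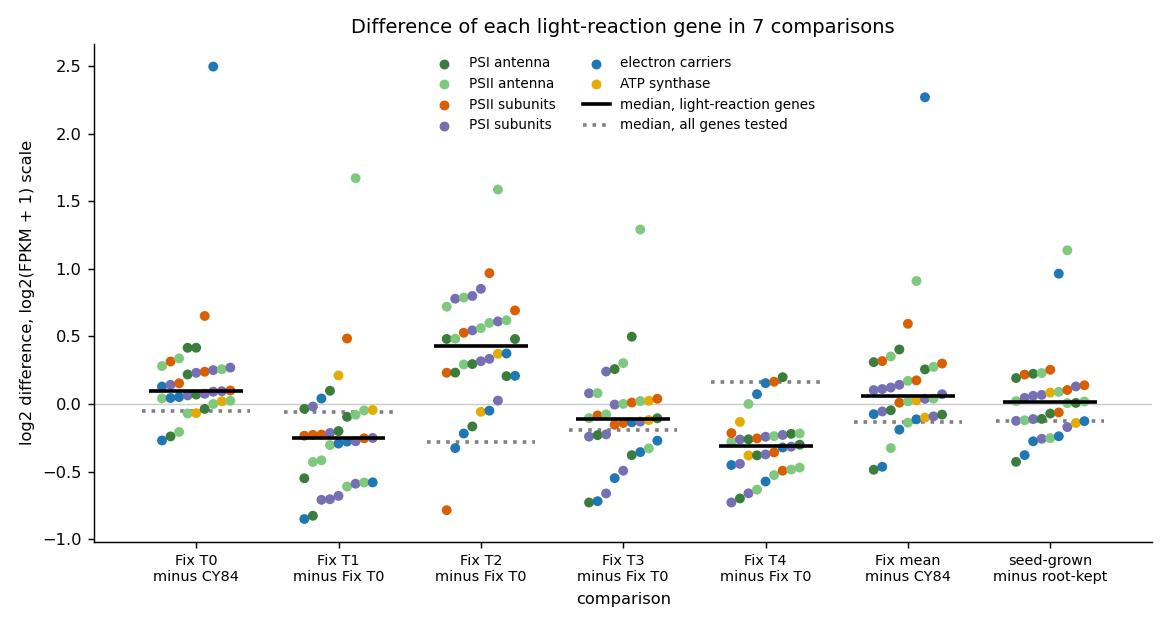
log2 difference of each tested light-reaction gene (points, coloured by role) in 7 comparisons, on the log2(FPKM + 1) scale, with the median of the 34 as a solid line and the median of all tested genes as a dotted line. The solid line is above the dotted one by 0.71 in Fix T2 against Fix T0 and below it by 0.47 in Fix T4 against Fix T0. Fd1 is the highest point in both comparisons with CY84, and LOC_Os01g52240, at 0 in 9 libraries, in those of Fix T1, Fix T2, Fix T3 and the seed-grown groups.

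Pooled over generations, the differences of the light-reaction genes depended on the scaling. LOC_Os01g52240, listed at 0 in every CY84 and Fix T0 library, counts as positive in both pooled comparisons. For the mean of the 5 Fix groups against CY84 the median was 0.06, against -0.13 for all genes, with 22 positive and 12 negative. After rescaling it was 0.23, with 30 of 34 positive and the median of all genes at 0.00. limma called 0 of 34, against 0.747% of all genes, and 1 (Fd1) at an unadjusted p under 0.05, against 13.1%, and 0 had all Fix libraries to one side of CY84, against 7.44% of all genes. For the 4 seed-grown groups against the 2 root-kept groups the median was 0.01, against -0.12 for all genes, with 19 positive and 15 negative, and after rescaling it was 0.18, with 27 of 34 positive and the median of all genes at 0.00. Here limma called 0 of 34, against 2.07% of all genes, with 0 at an unadjusted p under 0.05, against 19.3%, and 0 without overlap, against 1.65%. The smallest adjusted p of the latter was 0.273, for LOC_Os02g52650 (-0.43).

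A further 19 genes around the light reactions were looked at in the same fit: more ferredoxins and ferredoxin-NADP reductases, assembly factors, xanthophyll cycle enzymes, early light-induced proteins and the chloroplast regulators GLK1 and GLK2. In the seed-grown against the root-kept groups 1 of 19 passed, against 2.07% of all genes, and it was higher, and 0 were lower. That gene, LOC_Os03g61960 of the ferredoxin family, stood at 43.8 and 53.6 FPKM in CY84, 66.4 and 61.3 in Fix T0, 136 and 104 in Fix T1, 49.7 and 68.7 in Fix T2, 145 and 129 in Fix T3, and 101 and 109 in Fix T4. It rose by 0.83 (SE 0.15) on the log2 scale, with a limma adjusted p of 0.0156. Fix T2 replicate 1 lay among the root-kept libraries and Fix T2 replicate 2 just above them, and the other 6 seed-grown libraries were at 101 FPKM or more. The adjusted p was between 0.0713 and 0.124 when any 1 of the CY84 or Fix T0 libraries was left out. The gene also passed limma's F test over the 6 groups (adjusted p 0.0210), but not after rescaling (0.0709). Nor did it pass that test when any 1 of the CY84, Fix T0 or Fix T4 libraries, or Fix T3 replicate 1, was left out. In each of the other 6 comparisons 0 of 19 passed, against 0.0795% to 1.05% of all genes. At an unadjusted p under 0.05 there were 1 to 5, against 3.87% to 19% of all genes.

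The other 18 are given as levels. The 3 genes of early light-induced proteins, which bind pigments under excess light, had the widest ranges among those above 1 FPKM throughout: LOC_Os07g08160 ran from 17.9 FPKM in Fix T1 replicate 1 to 352 in Fix T2 replicate 2. Its value in Fix T2 replicate 1 was 24.5, so that the 2 Fix T2 libraries, alike in their share of light-reaction transcripts, lay near opposite ends for this gene. ATPG (LOC_Os03g17070), another chloroplast ATP synthase subunit, ranged from 1147 to 3865 FPKM and was highest in Fix T2 replicate 2, as was the photosystem II assembly factor PSB27 (LOC_Os03g21560) at 1035. GLK1 (LOC_Os06g24070) and GLK2 (LOC_Os01g13740), transcription factors that drive genes of the light reactions, ranged from 88.6 to 179 and from 89.4 to 143 FPKM.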

How the data were processed

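The authors deposited 1 table of FPKM values, with a column for each of 12 RNA-seq libraries. The submitters' processing notes name HISAT2 2.1.0 and StringTie 1.3.4d beside featureCounts 1.6.4 and DESeq2 1.30.1, and Trimmomatic 0.39 beside other read tools. The role of each tool and the genome build are not given in the sources used here. The table has 20 unnamed columns, which were left aside, and the 12 bisulfite samples of the series were not analysed here. Read counts were not used, so that absolute depth is unknown. The commonest ratio between low FPKM values of CY84 replicate 1 and of another library was taken as the relative depth. It held for 41 to 83 genes, of 985 to 1385 compared in a library. In Fix T2 replicate 2 it held for 41 genes and the next ratio for 22, so the depths are rough estimates.

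The log2(FPKM + 1) values, a scale that understates changes of low genes, entered a limma model (limma 3.58.1, R 4.3.3) of group means with a trended prior and 6 residual degrees of freedom. Tested were the 18871 genes that reached 1 FPKM in 2 or more libraries, and p-values were adjusted over them by Benjamini-Hochberg within each of 8 comparisons, with 0.05 as the threshold. Lists of genes were described by counts and medians without a test. The script was tested on simulated data.

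The 36 genes, the lists and the tests were chosen with earlier results of these data known. Genes were named by a rule: in each role class the highest mean and the widest ratio between libraries, every gene that passed, and genes with a mean under 5 FPKM. Others named singly were chosen after their values were seen. The table pairs no names with its identifiers. Names come from published rice nomenclature by hand; for 8 of 36 the name was found on the same chromosome of the RefSeq annotation, and 28 rest on the hand pairing alone. Of the 37 further genes, 13 were found in this way. Alternatives were a pseudocount of 0.1, no filter, median-of-ratios rescaling, a replicate block, leaving out each library and fits of the compared groups alone. Library weights, a fit without 4 libraries and alternatives for the counts without overlap were added after seeing the data.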

Additional observations from a re-analysis of the deposited data

Results flagged for a closer look

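Checks for a library far from the others were made in the 8 seed-grown and the 4 root-kept libraries, for 12 named genes and 7 summed levels. Of 38 checks, 1 stood out. Chance gives about 1 in 20 for genes not chosen by their range, and that rate does not hold here, since PsaN and 5 others of the 12 were named for the widest range of their class. PsaN (LOC_Os12g08770) was at 1889 FPKM in Fix T2 replicate 2, and the other 7 seed-grown libraries ran from 409 to 774 FPKM. The gap to the next library was 0.754 of the whole range, past Dixon's critical value. The same library held the highest value of 12 of the 33 expressed light-reaction genes, and of 6.98% of all tested genes.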

How the results depend on the processing

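The count of light-reaction genes that passed stayed at 0 in 141 of 147 alternative fits. In the other 6 it was 1: Fd1 without CY84 replicate 1 (Fix T0, the Fix mean, the seed-grown groups and the F test) and PsaN without Fix T2 replicate 1 (Fix T2 and the F test), so that leaving out 1 library gave 0 to 1 in these comparisons. Counts of all genes that passed moved far more, from 2 to 1109 for Fix T2 against 17, and from 3 to 1640 for Fix T3 against 55. The cause was not tested.

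Of 129 alternative medians, 126 moved by less than 0.23, the SD of a library's median within groups. Many of the 126 could not move, so that this count is no measure of stability. Leaving out a library of a group that is not compared keeps the difference of 2 group means. So do the replicate block and the library weights, which were equal within each group. Rescaling gave 0.84 for Fix T2 and 0.14 for Fix T3, and 0.23 for the Fix mean and 0.18 for the seed-grown groups. Leaving out 1 library gave -0.36 to 0.083 for Fix T3, 0.35 to 0.56 for Fix T2, -0.42 to -0.02 for Fix T1 and -0.48 to -0.11 for Fix T4. Rescaled counts without overlap were 28 for Fix T2 (25.01% of all genes), 2 for Fix T3 (26.2%) and 25 for Fix T4 (21.3%). Leaving out a compared library gave 12 to 27 for Fix T0 (27.1% to 37.2% of all genes), 13 to 26 for Fix T1 (21.4% to 56.9%), 21 to 26 for Fix T2 (15.2% to 22.8%), 10 to 22 for Fix T3 (47.5% to 55.4%) and 16 to 28 for Fix T4 (16.9% to 24.6%).

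Rescaling moved the summed FPKM of the 36 genes to 77211 and 69079 in CY84, 77540 and 92264 in Fix T0, 90355 and 57953 in Fix T1, 133852 and 183041 in Fix T2, 126242 and 86350 in Fix T3, and 69031 and 47457 in Fix T4. Equal replicate numbers showed no common pairing of libraries. The correlation of deviations ran from -0.30 to 0.19 and was over 0.1 in 2 of 15 pairs of groups. Other structure shared between groups, with replicate numbers exchanged, was not tested. With the replicate block, 0 light-reaction genes passed. The medians were as before, 0.43 for Fix T2, which was fixed in advance. Each group holds 1 library of each replicate number, so the block cannot change a difference of group means. Fits of the compared groups alone hold all libraries for the pooled comparisons and were not run there. With 2 libraries a group and FPKM without counts, differences could be missed, and no limit of detection was worked out. Differences well above their standard error did not pass either, such as PsaF in Fix T2 against Fix T0 (log2 0.78, SE 0.28, limma adjusted p 0.201).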
